A study of Caenorhabditis elegans with 2 samples.

Results

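The regions described here are candidate binding regions of SOX-4 in the 2 clusters of piRNA genes on Caenorhabditis elegans chromosome IV. They were taken from the list of regions that the authors called on the pooled alignments of both replicates, by the position of the summit on build ce11: from 4.5 to 7.0 Mb (the left cluster) or from 13.5 to 17.2 Mb (the right cluster). By this rule 2605 of 30000 regions were members, 1026 in the left and 1579 in the right cluster, and the other 3484 regions of chromosome IV were the comparison. The animals were whole hermaphrodite L1 larvae of strain OP517 (unc-119(tm4063) III; wgIs517), in which a stably carried transgene makes SOX-4 fused at its C terminus to GFP and FLAG. They were starved after bleaching and collected 6 hours post synchronization. Sonicated chromatin was pulled down through the GFP part of the fusion, and the 2 biological replicates form 1 group. Both replicates carried the same transgene, no sample without the tag was analysed here, and whole animals mix all cell types of the larva.

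The pooled list is ranked, includes background and ends at 30000 regions, so a region in it is a candidate and not a significant peak. The authors' optimal list, which passed their irreproducible discovery rate (IDR) filter, held 1497 peaks, the same regions as the 1497 of highest signal in the pooled list. Signal is the authors' own value per region and has no stated scale, and read depth is unknown. With 2 replicates of 1 group there is no test over samples, so the differences below are descriptions, with the lists of both replicates beside them, and the 95% intervals (exact, Clopper-Pearson) cover the counting of regions only. Regions overlap and share promoters, so they are not independent.

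piRNAs of C. elegans, also called 21U-RNAs, are short germline RNAs that begin with uridine and guide the Argonaute PRG-1 to foreign and repeated sequences. Nearly all of their genes are single transcription units made by RNA polymerase II, packed into introns and the space between coding genes in AT-rich DNA. Most carry an upstream motif that resembles CTGTTTCA at its core, and factors such as SNPC-4 and PRDE-1 gather on the clusters in germ nuclei. SOX-4 belongs to the Sox family, whose HMG box binds ACAAT-like sequences in the minor groove. Sox proteins are known as regulators of cell fate and not as piRNA factors. A starved L1 larva has few germ cells, so chromatin of somatic cells makes up most of such a sample.

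The clusters held 14204 of 15363 annotated piRNA genes (92.5%), 2816 in the left and 11388 in the right cluster, against 510 in the rest of chromosome IV. Coding genes were sparser there, with 193 per Mb in the left and 124 per Mb in the right cluster, against 207 per Mb in the rest of chromosome IV. CTGTTTCA lay within 60 bp upstream of 4944 of the 14204 piRNA genes of the clusters (34.8%). Its first base was most often 46 bp before the 5′ end (1680 genes), and the middle 50% of these genes had it 45 to 47 bp before.

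The sequences below show strong summits and weak regions that hold the piRNA motif, on the plus strand of ce11 unless named otherwise, in the RefSeq copy of the assembly. The first 6 lines are the summits of optimal peaks with 50 bases on each side: the 3 strongest of the left cluster (chrIV:4750035-4750135, chrIV:6206529-6206629 and chrIV:6321851-6321951), the 2 strongest of the right cluster (chrIV:16415732-16415832 and chrIV:16415234-16415334) and the fifth of that cluster (chrIV:15570844-15570944), which lies among the most piRNA genes. The next 4 lines are the 2 strongest regions of each cluster below the optimal list with CTGTTTCA within 50 bp of the summit (chrIV:5565082-5565182, chrIV:5559074-5559174, chrIV:14707773-14707873 and chrIV:14889781-14889881), a set chosen after values were seen and for the motif, which 264 of the 2534 regions of the clusters below the optimal list have. The last 2 are the piRNA genes nearest to the first weak region of each cluster, in their own 5′ to 3′ direction on the minus strand, with 60 bases upstream (chrIV:5565046-5565126 and chrIV:14707799-14707879). Capitals mark CTGTTTCA, GAGTACAC, GGCCTAG or GAGAGAG on either strand and, in the last 2 lines, the piRNA itself.
left cluster peak 1: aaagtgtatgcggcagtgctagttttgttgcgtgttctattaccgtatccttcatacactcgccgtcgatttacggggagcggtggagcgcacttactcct
left cluster peak 2: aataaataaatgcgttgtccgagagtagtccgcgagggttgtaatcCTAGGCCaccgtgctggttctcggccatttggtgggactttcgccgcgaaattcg
left cluster peak 3: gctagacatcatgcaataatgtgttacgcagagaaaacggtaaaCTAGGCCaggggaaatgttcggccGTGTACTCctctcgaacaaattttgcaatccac
right cluster peak 1: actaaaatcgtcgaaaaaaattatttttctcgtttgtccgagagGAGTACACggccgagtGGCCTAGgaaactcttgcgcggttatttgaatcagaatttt
right cluster peak 2: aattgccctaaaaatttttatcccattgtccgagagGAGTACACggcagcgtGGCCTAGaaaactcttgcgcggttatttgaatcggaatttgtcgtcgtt
right cluster peak 5: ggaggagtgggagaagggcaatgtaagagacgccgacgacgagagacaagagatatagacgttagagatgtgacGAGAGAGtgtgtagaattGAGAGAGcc
left cluster weak region 1: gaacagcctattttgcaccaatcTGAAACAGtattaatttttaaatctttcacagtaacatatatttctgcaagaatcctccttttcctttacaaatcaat
left cluster weak region 2: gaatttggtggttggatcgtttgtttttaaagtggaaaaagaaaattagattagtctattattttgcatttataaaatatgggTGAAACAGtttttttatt
right cluster weak region 1: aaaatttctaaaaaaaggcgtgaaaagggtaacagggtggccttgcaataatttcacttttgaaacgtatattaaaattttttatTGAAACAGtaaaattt
right cluster weak region 2: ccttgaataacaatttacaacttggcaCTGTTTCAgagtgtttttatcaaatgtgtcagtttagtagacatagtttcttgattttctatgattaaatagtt
21ur-4713: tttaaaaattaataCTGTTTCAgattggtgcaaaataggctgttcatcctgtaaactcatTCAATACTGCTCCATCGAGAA
21ur-651: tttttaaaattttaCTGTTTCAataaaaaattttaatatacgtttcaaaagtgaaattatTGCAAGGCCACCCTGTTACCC
None of the 6 strong summits has the piRNA motif within 50 bp, and 4 of them were 45.5% GC or more. The 4 weak regions were 24.8% to 29.7% GC and lay 4 to 66 bp from a piRNA 5′ end. The motif began 46 bp before the piRNA in 21ur-4713 and 21ur-651, and likewise in 21ur-13850 and 21ur-7052, the piRNA genes nearest to the other 2 weak regions.

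Candidates were denser in the clusters than elsewhere on the chromosome. The pooled list had 410.4 regions per Mb in the left cluster and 426.8 in the right cluster, against 308.5 in the rest of chromosome IV and 299.2 over the nuclear genome. Both clusters together had 1.36 times the density of the rest of chromosome IV (counting interval 1.31 to 1.42). In the lists of the replicates the ratio was 1.28 in replicate 1 and 1.34 in replicate 2. Regions covered 15.8% of the bases of the clusters and 11.6% of those of the rest of chromosome IV. Overlapping neighbours were common, and merging them left 2309 stretches in the clusters and 3097 in the rest of chromosome IV.

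In bins of 0.5 Mb, the clusters had 158 to 259 regions (median 205, 12 bins), against 109 to 191 (median 153.5, 22 bins) in the rest of chromosome IV. The ranges overlapped, and 8 of the 12 cluster bins were above each of these 22 bins, against 9 in replicate 1 and 7 in replicate 2. The bin from 17 Mb, which straddles the end of the right cluster, was left out of this count. It had 179 regions in the pooled list and in replicate 2, and 189 in replicate 1. In replicate 1 it was thus above the counted cluster bins from 6.5 Mb (187) and from 16.5 Mb (182). Of all 197 bins of the nuclear genome, the densest (259 regions) was in the right cluster, from 14.5 to 15 Mb, and the next (258) in the left cluster, from 5.5 to 6 Mb. The clusters held 7 of the 20 densest bins, and bins of III and X were among the others. Optimal peaks gave another order, with 3 to 12 per bin in the clusters (median 5) and 2 to 13 in the rest of chromosome IV (median 7).

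**Figure D1:**
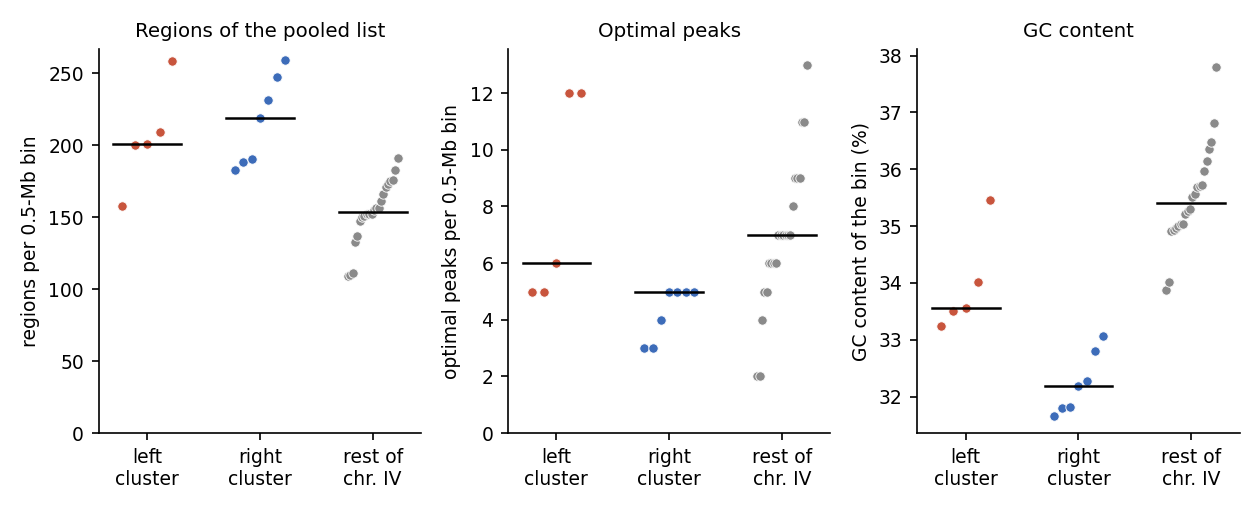
Regions of the pooled list (left), optimal peaks (middle) and GC content in percent (right) of each 0.5-Mb bin of chromosome IV, 1 point per bin, with the median as a line, for the left cluster (5 bins), the right cluster (7 bins) and the rest of the chromosome (22 bins). The bin that straddles the end of the right cluster is left out; cluster bins hold 158 to 259 regions and other bins 109 to 191, and cluster bins have mostly the lower GC content, with ranges that overlap.

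GC content moved with the density. Cluster bins were 31.7% to 35.5% GC, against 33.9% to 37.8% for the bins of the rest of chromosome IV, and tiles of 1 kb with 25% to 30% GC made up 29.9% of the clusters and 8.71% of the rest of chromosome IV. Within that class the clusters had 571 regions per Mb against 492 in the rest of chromosome IV. In tiles of 30% to 35% GC the values were 436 and 362 regions per Mb, and in tiles of 40% to 45% GC they were 189.7 and 187.6. In tiles of 45% GC and over the order turned, with 96.8 in the clusters (155 tiles) and 197.8 in the rest of chromosome IV (359 tiles). Weighting the rest of chromosome IV to the GC content of the clusters, a comparison added with the densities already known, gave a ratio of 1.16 (1.205 in the left and 1.13 in the right cluster). It was 1.13 in replicate 1 and 1.16 in replicate 2. The part of base composition in the density was not tested further.

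The strongest regions did not follow the candidates. Of the cluster regions, 71 of 2605 were optimal (2.73%, interval 2.13% to 3.43%), against 156 of 3484 in the rest of chromosome IV (4.48%, 3.82% to 5.22%) and 4.99% of the whole pooled list. The clusters differed from each other, with 40 of 1026 in the left (3.90%, 2.80% to 5.27%) and 31 of 1579 in the right cluster (1.96%, 1.34% to 2.78%). Per Mb there were 16 optimal peaks in the left cluster, 8.38 in the right cluster and 13.8 in the rest of chromosome IV, so the low count was that of the right cluster. Among each replicate's own 1497 strongest regions the shares were 3.10% in the clusters against 4.42% in the rest of chromosome IV (replicate 1), and 2.81% against 4.97% (replicate 2).

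The median signal of cluster regions was 17.8 (quartiles 15.1 and 22.5), against 18.3 (15.1 and 24.05) in the rest of chromosome IV, and the intervals below show where the lists parted. Among weak regions, with signal of 15 to 20, the left cluster had 1.40 times and the right cluster 1.63 times the density of the rest of chromosome IV. At 30 to 50 the ratio was still 1.27 in the left cluster (90 regions) but 0.706 in the right cluster (74 regions). At 50 to 100 it was 1.12 in the left (30 regions) and 0.530 in the right cluster (21 regions). At 100 and over each cluster had 12 regions, at ratios of 1.29 and 0.872 for the left and the right cluster.

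**Figure D2:**
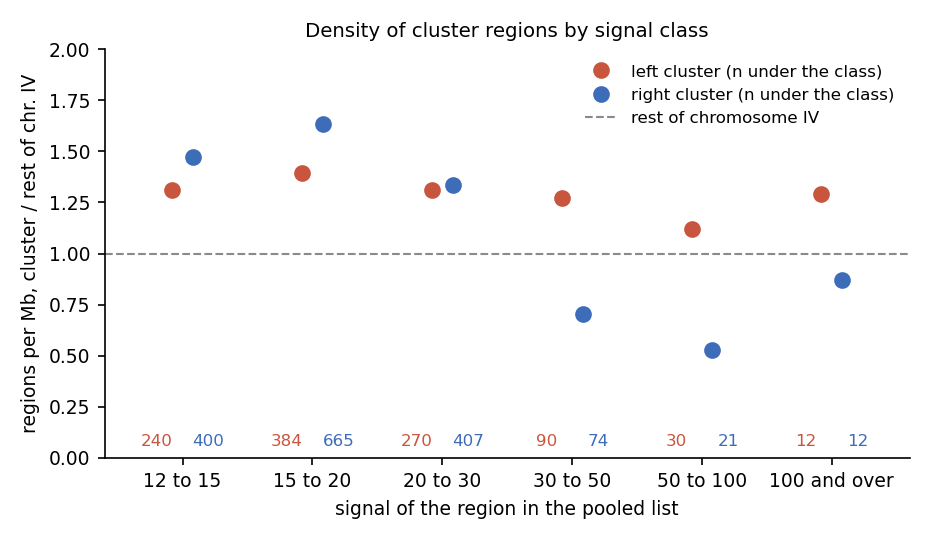
Density of regions in the left and the right cluster divided by that of the rest of chromosome IV (vertical axis, no unit), by class of signal in the pooled list (horizontal axis), with the number of regions above the axis. The right cluster is above 1 for weak regions and below 1 from a signal of 30, while the left cluster stays above 1.

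Most cluster summits lay near a piRNA gene, as most of the clusters' bases do. A piRNA 5′ end had the summit within its window, from 1000 bp upstream to 200 bp downstream, at 2019 of 2605 regions (77.5%, 75.9% to 79.1%), against 64.4% of all bases of the clusters. In the rest of chromosome IV it was 4.85% of summits and 3.88% of bases. Within 100 bp of a piRNA 5′ end lay 41.1% of cluster summits and 29.8% of bases. Among the lists of the replicates, the share in the window was 75.3% in replicate 1 and 76.1% in replicate 2.

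Optimal peaks and the other regions of the clusters differed in this. Of the 71 optimal peaks, 18 had a piRNA 5′ end in the window (25.4%, 15.8% to 37.1%), against 2001 of the 2534 other regions (79.0%, 77.3% to 80.5%). Within 100 bp the counts were 2 of 71 (2.82%, 0.343% to 9.81%) and 1068 of 2534 (42.1%, 40.2% to 44.1%). The median distance to the nearest piRNA 5′ end was 2021 bp for optimal peaks and 135 bp for other regions, and 249 bp over all bases. In the right cluster, where piRNA genes are densest, it was 1754 bp for optimal peaks and 92.5 bp for other regions.

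Around the nearest piRNA 5′ end, the first 100 bp upstream held 559 summits, 1.43 times their share of bases. The first 100 bp downstream held 509, 1.33 times, and the ratio was 1.01 at 200 to 300 bp upstream and 1.00 at 200 to 300 bp downstream. In the right cluster the ratio was below 1 in each step beyond 200 bp, out to 1000 bp. In the left cluster it was mostly above 1 there too, and its highest step, 1.51, was 500 to 600 bp upstream with 23 summits. Within 100 bp of any piRNA 5′ end the excess over bases was alike, at 1.39 times in the left and 1.36 times in the right cluster. In the window from 1000 bp upstream to 200 bp downstream the excess was 1.26 times in the left and 1.17 times in the right cluster. That window held 49.7% of the bases of the left and 74.3% of those of the right cluster. Each ratio compares shares within 1 cluster, so an excess near piRNA 5′ ends lowers the ratio farther out. The lowering is larger where more bases lie near such ends. Whether the excess of the right cluster was narrower beyond this was not tested. Around coding 5′ ends the highest ratio was 1.80, at 100 to 200 bp upstream (68 summits).

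**Figure D3:**
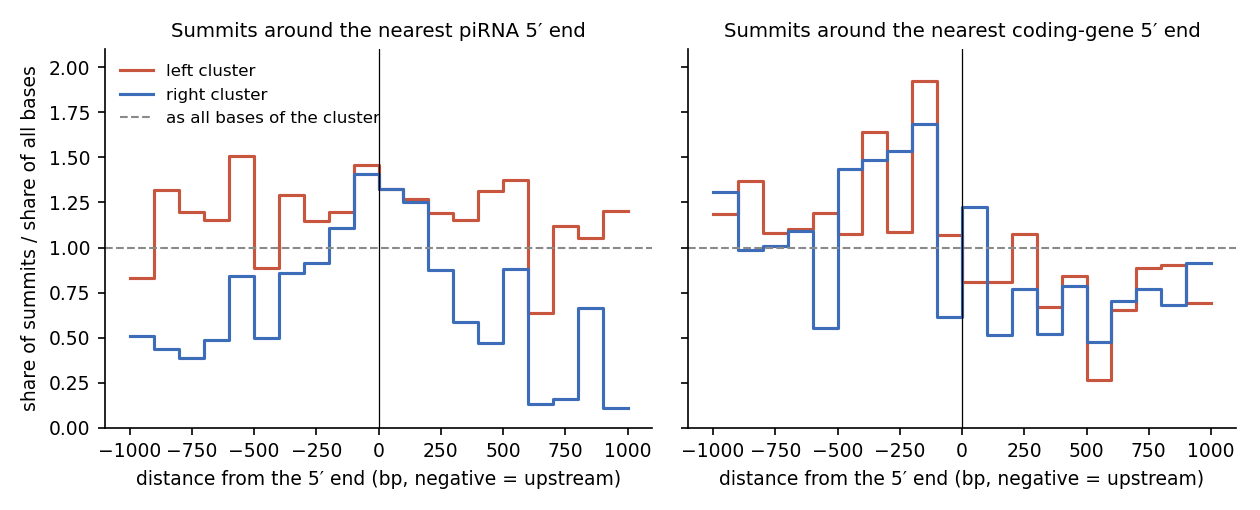
Share of summits of the pooled list divided by the share of all bases of the same cluster (vertical axis, no unit), in steps of 100 bp from the nearest piRNA 5′ end (left) and the nearest coding-gene 5′ end (right), for the left and the right cluster. In the right cluster the ratio is above 1 only within 200 bp of piRNA 5′ ends, where it reaches 1.41, while the left cluster is mostly above 1 also farther out, and near coding genes the highest step of both lies 100 to 200 bp upstream.

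Of the 14204 piRNA genes of the clusters, 3102 had their 5′ end under a candidate (21.8%, 21.2% to 22.5%), where 15.8% of bases were covered. The share was 20.1% in replicate 1 and 19.8% in replicate 2. It was 21.8% for genes with CTGTTTCA within 60 bp upstream (1076 of 4944) and 21.9% for those without it (2026 of 9260). Under an optimal peak lay 4 of 2816 piRNA 5′ ends of the left cluster and 0 of 11388 of the right cluster, which allows a share of up to 0.0324%. That bound is too narrow, since it takes the genes as independent while the count rests on the places of 31 optimal peaks. Optimal peaks covered 0.534% of the bases of the left and 0.277% of those of the right cluster.

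Tiles of 1 kb showed the density of candidates against that of piRNA genes. In the clusters, tiles with 0, with 1 to 2, with 3 to 5 and with 6 or more piRNA 5′ ends had 266, 440, 534 and 610 regions per Mb, in that order. Replicate 1 had 275, 410, 467 and 538, and replicate 2 had 257, 424, 500.3 and 546. The GC content of the tiles fell along with it, at means of 36.4%, 32.7%, 30.4% and 28.4%. Within tiles of 25% to 30% GC, those with a piRNA 5′ end had 609 regions per Mb and those without 318. At 30% to 35% GC the values were 474 and 350, at 35% to 40% GC 329 and 267, and at 40% to 45% GC 289 and 171. Tiles with piRNA genes were thus denser at each of these GC contents, and neighbouring tiles share regions, genes and sequence. Some classes were small: 239 tiles without piRNA genes at 25% to 30% GC (76 regions) and 83 tiles with them at 40% to 45% (24 regions). The rest of chromosome IV had 492 regions per Mb at 25% to 30% GC, between the cluster values, and 254 at 35% to 40%, below both. Tiles were not matched for coding exons, which held 11.8% of cluster regions and 20.1% of bases, and their part was not tested.

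**Figure D4:**
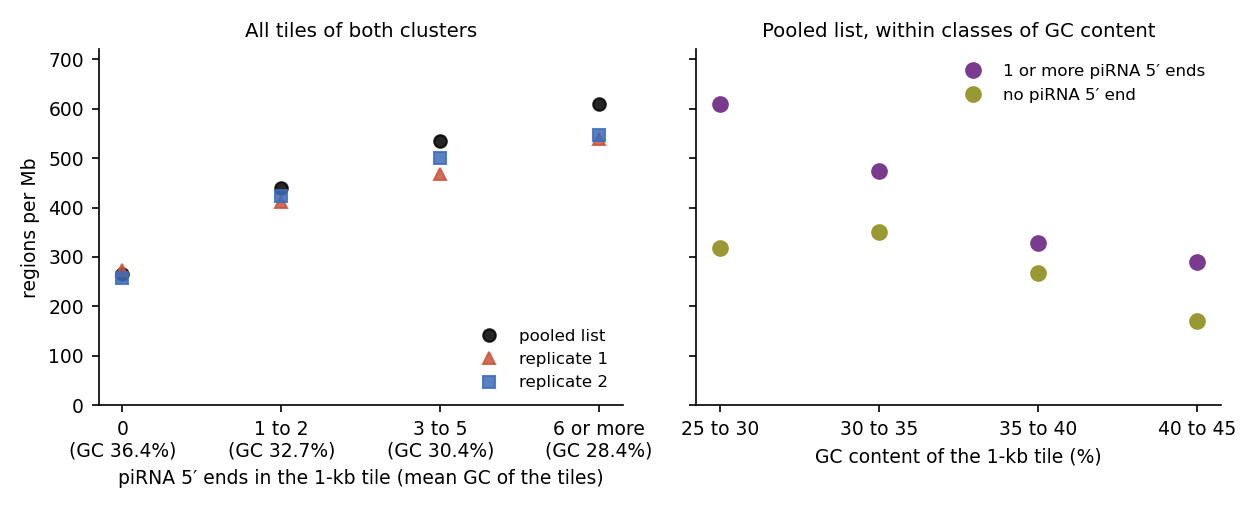
Regions per Mb (vertical axis) in 1-kb tiles of both clusters, by the number of piRNA 5′ ends in the tile for the pooled list and each replicate (left; mean GC content in parentheses) and by GC content of the tile for tiles with 1 or more and with no piRNA 5′ end (right). Density goes up from 266 to 610 per Mb with the number of piRNA 5′ ends in the pooled list, and at each GC class shown the tiles with piRNA 5′ ends are the denser ones.

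Coding promoters had the reverse order. A coding 5′ end had the summit in its window at 36 of 71 optimal peaks of the clusters (50.7%, 38.6% to 62.8%), against 441 of 2534 other regions (17.4%, 15.9% to 18.9%) and 16.6% of all bases. In the rest of chromosome IV the values were 61.5% of optimal peaks, 25.8% of other regions and 21.9% of bases. Within 100 bp of a coding 5′ end the contrast in the clusters was not clear. There lay 3 of 71 optimal peaks (4.23%, 0.880% to 11.9%), 2.76% of other regions and 3.03% of bases. In the rest of chromosome IV these shares were 13.5%, 5.23% and 4.12%. Of the 71, 30 had a coding 5′ end alone in the window, 12 a piRNA 5′ end alone, 6 both and 23 neither. Seen from the genes, 51 of 941 coding genes of the clusters had an optimal peak in the window (5.42%, 4.06% to 7.06%), against 5.68% (4.78% to 6.70%) in the rest of chromosome IV and 5.67% of all coding genes, and the intervals overlap.

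By location, 50 of the 71 optimal peaks had the summit outside coding and other noncoding genes (70.4%), against 56.0% of other regions and 49.6% of bases, where piRNA genes count as outside. Introns of coding genes held 15 optimal peaks (21.1%), 31.1% of other regions and 29.3% of bases. Coding-gene exons held 3 optimal peaks (4.23%), 12.04% of other regions and 20.1% of bases. The summit with 50 bases on each side averaged 43.8% ± 9.94 GC for optimal peaks (SD, 71 regions) and 30.3% ± 8.14 for other regions (2534), with 33.0% over all windows of that length in the clusters. Optimal peaks of the rest of chromosome IV averaged 44.1% ± 9.87, so GC-rich summits were shared by optimal peaks on both sides of the boundary.

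The piRNA motif had the same order as the piRNA genes. CTGTTTCA lay within 50 bp of the summit at 264 of 2605 cluster regions (10.1%, 9.0% to 11.4%) and in 7.34% of all windows of the same length of the clusters, against 0.918% of regions and 0.762% of windows in the rest of chromosome IV. All 264 were regions below the optimal list, and 0 of the 71 optimal peaks had it, which allows a share of up to 5.06%. The optimal peaks elsewhere were alike in this, with 0 of 156 in the rest of chromosome IV and 4 of 1497 over the nuclear genome (0.267%, with 1.00% of windows). ACAAT, the Sox core, lay near 18 of 71 optimal peaks (25.4%, 15.8% to 37.1%) and 34.2% of other regions, with 32.0% over all windows of the clusters. GAGAGAG lay near 6 of 71 optimal peaks (8.45%, 3.16% to 17.5%) and 1.54% of other regions, with 1.23% of windows, and 5 of these 6 were among the 31 of the right cluster. In the rest of chromosome IV it lay near 8.97% of optimal peaks, so it was not particular to the clusters. CACGTG lay near 3 of 71 optimal peaks (4.23%, 0.880% to 11.9%) and 0.750% of other regions, with 1.32% of windows, which that interval holds. Its share was 3.85% of optimal peaks in the rest of chromosome IV. A match says nothing of which factor bound there.

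The 10 strongest regions of the left cluster were all optimal, and 8 had a coding 5′ end and 0 a piRNA 5′ end in the window. The strongest, at IV from 4749952 to 4750212, had signal 346.6 (175.1 in replicate 1 and 173.1 in replicate 2, ranks 25 and 34) and lay upstream of both Y17G9B.5 (155 bp) and rpl-18A, the gene of a protein of the large ribosomal subunit. The second, at 6206455 to 6206686, had signal 261.3 (121.2 and 137.4) and lay 235 bp upstream of C49A9.10. The third, at 6321788 to 6322003, had signal 241.9 (131.4 and 126.8) and lay 28 bp upstream of Y73B6BL.29. These 3 ranked 67 or better in each replicate.

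The fourth left region, at 6323767 to 6323954, had signal 191.7 and lay 317 bp upstream of sqd-1, which encodes an RNA-binding protein. The fifth, at 4660605 to 4660764, had signal 167.1 and lay upstream of jmjd-1.2, a histone demethylase gene (345 bp), and of F29B9.11. It was the exception in base composition, at 19.8% GC around the summit, where the other 9 had 42.6% to 58.4%. The sixth to eighth, with signal from 149.7 to 157.4, lay at mif-4 and ipla-6, at W03F8.4, and at cest-5.1 and C01B10.9. The ninth and the tenth (134.02 and 131.8) lay downstream of the 5′ end of K08F11.1 with no coding 5′ end in the window, and the one of 131.8 had the 5′ end of the noncoding gene K08F11.7 in it.

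The 10 strongest regions of the right cluster were optimal too: 5 had a coding 5′ end in the window and 5 a piRNA 5′ end, with some counted under both. The first, at 16415662 to 16415898, had signal 219.9 (131.7 in replicate 1 and 89.02 in replicate 2) and the second, at 16415174 to 16415425, had 195.8 (99.3 and 98.2). Both lay in an intron of Y65A5A.2, 3762 and 3264 bp from its 5′ end, and 17536 bp or more from any piRNA 5′ end. The third and sixth, at 15472513 to 15472674 (172.2) and 15471552 to 15471705 (127.7), were neighbours, 226 bp upstream of fdx-2, a ferredoxin gene, and 135 bp upstream of ntl-11, a gene of the CCR4-NOT deadenylase complex. The fourth, at 14464227 to 14464333 (142.99), lay 279 bp upstream of dld-1, dihydrolipoamide dehydrogenase, with 2 piRNA 5′ ends in the window.

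The fifth right region, at 15570860 to 15570960, was the strongest of the clusters to stand among piRNA genes alone. Its signal was 132.3 (55.4 in replicate 1 and 75.002 in replicate 2), 14 piRNA 5′ ends had it in their window, the nearest, 21ur-8889, was 341 bp away, and the nearest coding 5′ end was 6467 bp away. Its summit was 50.5% GC, had GAGAGAG and lacked CTGTTTCA. The seventh (122.5), at 16995562 to 16995688, lay 209 bp upstream of rom-4, a rhomboid protease gene, and was uneven between the replicates (85.3 and 36.4). The eighth (118.8), at 13887453 to 13887848, lay 428 bp upstream of lin-66, a heterochronic gene. The ninth (111.5), at 14033165 to 14033340, lay at the microRNA gene mir-52, while the tenth (106.1), at 15814084 to 15814479, had 5 piRNA 5′ ends and no coding one.

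Of the 5 optimal peaks closest to a piRNA 5′ end, 4 had a signal below the median of 83.7 of the clusters' optimal peaks. The nearest, at 5966937 to 5967332, had signal 54.2 (22.9 and 24.9) and a summit 46 bp downstream of the 5′ end of 21ur-5229, with the tRNA gene B0350.t1 in the same window. The next, at 5281470 to 5281865, lay 100 bp upstream of 21ur-14090, and at 51.7 (34.3 and 19.1) it was the weakest optimal peak of the clusters. A stronger one, at 5364094 to 5364489 (94.3), lay 127 bp from 21ur-11261 and 14 bp from the 5′ end of hda-6, a histone deacetylase gene. The fourth, at 5288904 to 5289299 (79.7), lay 185 bp from 21ur-6090 and was uneven, with 64.5 in replicate 1 and 15.2 in replicate 2. The fifth, at 14836842 to 14837237 (55.6), lay 203 bp from 21ur-12495 and 171 bp upstream of Y57G11C.22. On the 2 sides of the list's edge stood the optimal peak at hrpu-1 (52.2), with the one at 21ur-14090, and below it 2 regions of signal 51.1 and 50.99.

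Each of the 71 optimal peaks of the clusters overlapped a region in both replicate lists by 1 bp or more, as did 155 of 156 in the rest of chromosome IV. The optimal list was made from the same replicates, so this is no independent support. Of the other cluster regions, 1015 of 2534 overlapped both (40.1%, 38.1% to 42.0%), 664 replicate 1 alone, 680 replicate 2 alone and 175 neither. The share in the rest of chromosome IV was 40.4% (38.7% to 42.1%). It was higher at higher signal, with 30.2% of cluster regions of signal 15 to 20 in both lists, 59.7% at 20 to 30 and 93.9% at 30 to 50, against 26.5%, 60.9% and 93.1% in the rest of chromosome IV.

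Of the 71 optimal peaks, 53 matched a region among the 1497 strongest in both replicates (74.6%, 62.9% to 84.2%). The share was 65.4% (57.4% to 72.8%) in the rest of chromosome IV and 65.3% over all 1497 optimal peaks. Each peak was matched with the strongest replicate region that overlapped it, and the 71 peaks formed 66 stretches after merging. Overlapping peaks could thus share a match, and some replicate regions count more than once. The peak at 16415291 to 16415686 (54.9), for example, took the replicate values of its stronger neighbours (131.7 and 98.2). Signal of the matched regions ran from 13.7 to 175.1 in replicate 1 (median 49.4) and from 15.2 to 173.1 in replicate 2 (median 40.2). The lowest in replicate 1, of rank 9810, belonged to the peak at 6376512 to 6376907 near hrpf-2, and the lowest in replicate 2, of rank 6685, to the one near 21ur-6090. Over the 1086 cluster regions in both lists, log2 signal of the replicates had a Pearson r of 0.628 and a Spearman rho of 0.296, against 0.671 and 0.459 over 1499 regions in the rest of chromosome IV. These are correlations across regions of the same 2 libraries.

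**Figure D5:**
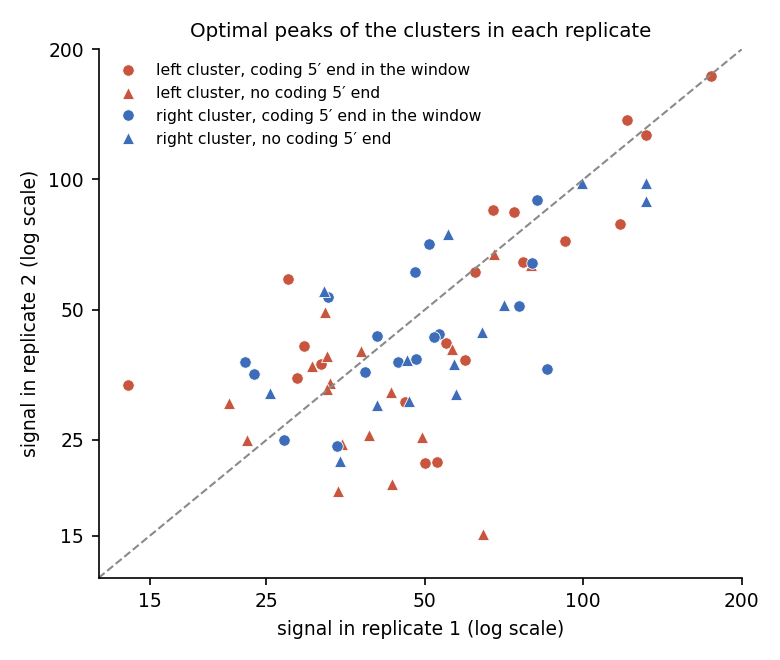
Signal of the 71 optimal peaks of the clusters in replicate 1 (horizontal axis) and replicate 2 (vertical axis), both on log scales, with the line of equal values; circles have a coding 5′ end in the window and triangles have none. Peaks of both clusters lie on both sides of the line, the strongest at 175.1 and 173.1, and the one with 64.5 in replicate 1 has 15.2 in replicate 2. Overlapping peaks can share a matched replicate region, and so a value.

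Genes that make or use piRNAs were looked up by name. Of a list of 25 piRNA pathway genes, 22 were matched in the annotation, 6 had a candidate in the window (27.3%, interval 10.7% to 50.2%, which holds the 37.8% of all coding genes) and 0 an optimal peak (which allows up to 15.4%), where 5.67% of all coding genes had one. The highest was that of tofu-1, a gene needed for piRNA expression, with signal 47.2 (24.7 in replicate 1 and 23.4 in replicate 2). The others, at henn-1, parn-1, tofu-5, pid-3 and unc-130, had 13.6 to 22.4. Those at parn-1 and tofu-5 had a region in both replicates. Those at henn-1 and pid-3 had one in replicate 1 alone, and that at unc-130 had one in neither. prg-1, prde-1 and snpc-4 had no candidate. Of 8 genes of germ cells, among them pgl-1, glh-1 and csr-1, 0 had a candidate. This allows a share of up to 36.9%, just below the 37.8% of all coding genes, in a short list chosen by name. Among coding genes within the clusters, gtsf-1, whose product is a small RNA factor in worms, had an optimal peak of 61.4 (23.7 and 35.5) 149 bp upstream, and was picked out after its value was seen.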

How the data were processed

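Regions of chromatin precipitated with tagged SOX-4 were analysed from the lists that the authors deposited: 1 list for each replicate, 1 for the alignments of the pair, and 1 optimal list after IDR. All but the last include background regions, and a control alignment was used in the calling, per the file headers. For the calling program, with its version, and for the IDR cutoff the sources used here give nothing. The deposited signal per region served only to order and describe regions within their own list, and the deposited −log10 q-value was not used. Lists were deposited on ce10 and ce11, and coordinates are 1-based on ce11 without conversion.

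Regions were assigned to a cluster by summit. Genes came from Ensembl release 115 (WBcel235, the sequence of ce11), with symbols and sequence from RefSeq (WormBase release 298), and pseudogenes were left out. Gene windows ran from 1000 bp upstream to 200 bp downstream, and a motif counted as near when it lay, in either orientation, in the summit's 50 bp on each side. GC and piRNA density used tiles of 1 kb. Replicate support meant an overlap of at least 1 bp. Shares have exact Clopper-Pearson 95% intervals. No test was made, since 1 group of 2 replicates allows none over samples and regions are not replicates. Read depth is unknown.

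The members, lists and motifs were chosen with earlier results of these data known. The regions named are the 10 strongest of each cluster, the 2 on each side of the optimal list's edge, the 5 optimal peaks nearest a piRNA 5′ end and any optimal peak without a region in a replicate (there was none among 71). The motifs GAGTACAC and GGCCTAG and the weak regions with CTGTTTCA were chosen after sequences were seen. Alternatives moved the boundaries, used midpoints, ce10, other chromosomes, other windows and overlaps, stricter lists, each replicate alone and, added later, tiles of like GC content. The functions recovered 11 of 11 quantities built into simulated regions. The work was done in Python (3.11.15) with scipy (1.17.1), numpy (2.4.6) and pandas (2.3.3).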

Additional observations from a re-analysis of the deposited data

How the results depend on the processing

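The density ratio of 1.36 was 1.52 against all other autosomes and 1.4997 against windows at the same places of the other autosomes, where III had one of 410.0 regions per Mb. It was 1.16 with tiles of like GC content, an alternative added with the densities known, and 1.28 to 1.34 with 1 replicate left out. Counted in the optimal list alone it was 0.829, below 1, since the right cluster had few optimal peaks. The optimal share of 2.73% was 1.61% for the stronger 748 peaks of the optimal list, against 1.92% in the rest of chromosome IV, and 2.81% to 3.10% with 1 replicate left out. The median signal of 17.8 was 10.9 to 11.4 in the lists of single replicates, which have their own scale.

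The share with a piRNA 5′ end in the window, 77.5%, was 83.5% with the boundaries moved inwards by 0.25 Mb, 41.1% with 100 bp and 75.4% with 500 bp on each side, 25.4% for the optimal list and 75.3% to 76.1% with 1 replicate left out. The share with a coding 5′ end, 18.3% (16.6% of bases), was 2.80% with 100 bp on each side (3.03% of bases). With 500 bp on each side it was 15.3% (14.4% of bases). For the optimal list it was 50.7%, and 18.0% to 18.9% with 1 replicate left out. The share overlapped in both replicates was 41.7%, against 43.0% in the rest of chromosome IV. Where 50% of the region had to be covered it was 28.1%, against 31.0% in the rest of chromosome IV. Among each replicate's strongest 1497 it was 2.30%, against 3.56% in the rest of chromosome IV and 3.95% over the whole pooled list. Of the other 30 of 48 alternatives, 24 moved a value by less than its interval. Midpoints, which are among these 24, gave the same values as summits. They could hardly do otherwise, since the median region was 396 bp wide and named regions of that width had the summit at their centre. The remaining 6 of the 30 changed the comparator alone, where the cluster value cannot move. The optimal share outside was then 5.32% over the other autosomes and 5.57% in their matching windows, in place of 4.48%. No paired analysis was possible because there is 1 group. Unknown read depth limits all of these values.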

Other observations

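Some of the strongest peaks of the clusters shared stretches of sequence, and 2 of the 3 longest runs were between close neighbours. Among the 190 pairs of the 20 strongest summits, taken with 50 bases on each side and on either strand, the longest shared run had a median of 7 bp, and 13 pairs shared more than 10 bp. The first and second peaks of the right cluster, 498 bp apart in the same intron of Y65A5A.2, shared a run of 25 bp. The third peak of the left cluster shared 20 bp with the first peak of the right cluster and 17 bp with its second, across the chromosome. The third and sixth peaks of the right cluster, 953 bp apart at fdx-2 and ntl-11, shared another run of 20 bp.

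A piece of the run that the third peak of the left cluster shared with the first of the right cluster (GAGTACAC), and another word seen in several of the printed summits (GGCCTAG), were chosen after the sequences were seen and counted over all regions. GAGTACAC lay within 50 bp of the summit at 5 of 71 optimal peaks of the clusters (7.04%, 2.33% to 15.7%) and at 6 of 2534 other regions (0.237%), with 0.210% of all windows. Over the nuclear genome it was at 56 of 1497 optimal peaks (3.74%) and at 74 of 28503 other regions (0.260%), with 0.246% of windows. In the rest of chromosome IV, which leaves out the peaks the motif was taken from, it was at 6 of 156 optimal peaks (3.85%, 1.42% to 8.18%) and 0.421% of other regions, with 0.258% of windows. GGCCTAG was at 5 of 71 optimal peaks of the clusters (7.04%) and 0.276% of other regions, with 0.386% of windows, and at 74 of 1497 optimal peaks over the genome (4.94%), with 0.663% of windows. In the rest of chromosome IV it was at 5 of 156 optimal peaks (3.21%, 1.05% to 7.32%) and 0.781% of other regions, with 0.750% of windows. Both motifs were taken from some of the cluster peaks, which the counts in the clusters and over the genome include, so those counts describe in part the choice.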
